A study of Caenorhabditis elegans with 4 samples.

Results

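The right arm of chromosome V is described here by the LIN-61 peaks that lie on it. Chromosome V was cut into 3 sections of equal length, and a peak was taken when its midpoint fell from position 13949433 to 20924149 (WS220 coordinates, 1-based), the last 6.97 Mb. The authors' list for the whole series had 1255 such peaks among its 14662. The list of ChIP replicate 1 had 911 of 9958, and that of replicate 2 had 1150 of 13486. LIN-61 binding was measured by chromatin immunoprecipitation and sequencing (ChIP-seq) with a rabbit polyclonal antibody in wild-type L3 larvae of strain N2, grown as mixed populations of males and hermaphrodites. The study has 2 ChIP libraries and 2 input DNA libraries, and the inputs were not analysed here. Whole larvae were used, so each peak list averages over all cell types. Whether the 2 replicates are separate cultures is not stated in the labels, and their spread may be technical.

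LIN-61 is a chromatin protein built of MBT repeats, a fold that recognises methylated lysines. It is encoded by a synMuv B gene, one of a class of genes that repress transcription and antagonise vulval induction in C. elegans. Worm chromosomes have gene-dense centres and repeat-rich arms, and histone H3 methylated at the lysine typical of heterochromatin is most abundant on the arms. The right end of chromosome V also carries its meiotic pairing centre, where homologous chromosomes pair and begin synapsis. The peaks were not assigned to genes or repeats, because no annotation of WS220 was used here.

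On 6.96% of the sequence, the arm held 9.15% of the peaks in replicate 1 and 8.53% in replicate 2. Of the chromosome V peaks, 57.2% in replicate 1 and 48.4% in replicate 2 were on this arm. Replicate 1 had 131 peaks per Mb and replicate 2 had 165, a mean of 148 ± 24 (SD, n = 2). The whole-series list gave 180 per Mb. Peaks covered 5.62% of the arm in replicate 1, 8.69% in replicate 2 and 10.9% in the whole-series list. By density the arm ranked 6 of the 12 chromosome arms in replicate 1, 8 in replicate 2 and 7 in the whole-series list. In replicate 1 its value was almost that of the left arm of II, at 130.6 per Mb for both. No read counts were given, so the depth behind the peaks is unknown.

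Peaks were unevenly placed along the arm, and both replicates showed the same shape. In bins of 500 kb laid from the start of the arm, the first 7 bins were sparse. They ranged from 8 to 38 peaks a bin in replicate 1 and from 22 to 59 in replicate 2. The next 6 bins, from position 17449433 to 20449432, were dense, with 79 to 164 peaks in replicate 1 and 104 to 179 in replicate 2. The bins were called sparse or dense from these same counts, so the gap between their ranges in each replicate is a description. In bins of 250 kb the ranges did overlap. At that size the bin from 18199433 to 18449432 had 64.0 and 120 peaks per Mb in replicates 1 and 2. That from 15449433 to 15699432, on the sparse side, had 140 and 184. The last of the 500 kb bins, 475 kb long, dropped back to 27 and 51 peaks.

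**Figure D1:**
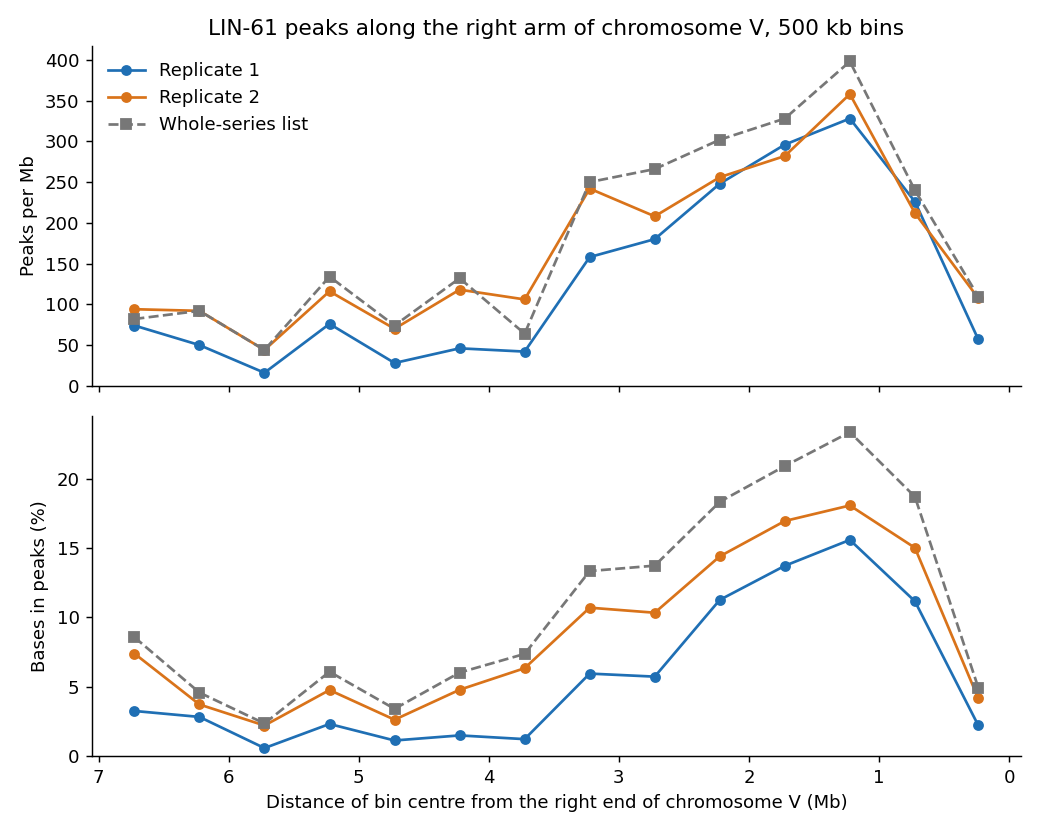
Peaks per Mb (upper) and percent of bases in peaks (lower) in 500 kb bins, against the distance of the bin centre from the right chromosome end in Mb, for replicate 1, replicate 2 and the whole-series list. The 6 dense bins stand above the 7 sparse ones in each list, and the last bin falls to 56.9 and 107 peaks per Mb in the replicates.

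The climb began with a step. Density went from 42.0 to 158 peaks per Mb in replicate 1 between the bin that starts at 16949433 and the one that starts at 17449433. In replicate 2 it went from 106 to 242 per Mb across the same border, and in the whole-series list from 64.0 to 250.0. Over the next bins it rose from 180 to 248, 296 and 328 per Mb in replicate 1. In replicate 2 density first fell from 242 to 208 per Mb, then rose to 256, 282 and 358. At 250 kb the rise was broken, with 296 per Mb in each replicate from 17949433 to 18199432. The following 250 kb had 64.0 and 120. The densest bin of 500 kb, from 19449433 to 19949432, held 343 ± 21 peaks per Mb (SD, n = 2). It had 164 peaks in replicate 1, 179 in replicate 2 and 199 in the whole-series list. The next densest bins were those starting at 18949433, with 289 ± 9.9 per Mb, and at 18449433, with 252 ± 5.7. The 3 sparsest bins started at 14949433, 15949433 and 14449433, with means of 30.0 ± 20, 49.0 ± 30 and 71.0 ± 30 per Mb. The replicates ranked the 14 bins alike, with a Spearman's rho of 0.912 across bins. The bins share their libraries and neighbouring bins are not independent, so that value is a description.

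For what follows the arm was divided at the bin borders into an inner part of 3.5 Mb, a dense part of 3 Mb and a terminal part of 0.475 Mb. These borders were chosen after seeing the bins, so differences between the parts are given without a test. The inner part had 166 peaks in replicate 1 and 320 in replicate 2. The dense part had 718 and 779 peaks, and the terminal part 27 and 51. Density in the dense part was 5.05 times that of the inner part in replicate 1 and 2.84 times in replicate 2. By covered bases, the dense part had 10.6% and 14.2% in peaks, against 1.84% and 4.55% in the inner part. The dense part alone carried 7.21% of all replicate 1 peaks and 5.78% of all replicate 2 peaks in the genome.

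At a scale of 100 kb the border was less sharp. From 17449433 to 17549432 there were 3 peaks in replicate 1 and 9 in replicate 2, and from 17549433 to 17649432 there were 5 and 30. Replicate 1 reached 18 peaks from 17649433 to 17749432, and both replicates reached 46 and 41 from 17949433 to 18049432. Single bins of the inner part had reached similar counts, such as 18 and 27 peaks from 15549433 to 15649432 and 12 and 22 in the bin just before the border. At this scale the start of the dense part was therefore not a single position. Within the dense part 25 of the 30 bins of 100 kb held at least 10 peaks in replicate 1, and 28 of 30 did so in replicate 2. The inner part had 7 of 35 such bins in replicate 1 and 13 of 35 in replicate 2.

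The dense part was itself broken by intervals where both replicates fell below its medians of 21 and 23.5 peaks per 100 kb bin. From 18149433 to 18249432 there were 2 peaks in replicate 1 and 5 in replicate 2. From 19749433 to 19849432 there were 6 and 12, though 12 was still above the replicate 2 median of 11 for the whole arm. Near that interval lay the pair of 100 kb bins with the most peaks in replicate 2. The bin from 19549433 to 19649432 had 67 peaks in replicate 1, 59 in replicate 2 and 67 in the whole-series list, and its peaks covered 31.3% and 28.6% of it in the replicates. The bin from 19849433 to 19949432 had 46, 57 and 56 peaks, and 31.2% and 41.2% of its bases were covered. Peak number and covered bases thus put different bins first in replicate 2.

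Towards the chromosome end the counts fell, though unevenly. Counted back from the last base, the stretch from 800 to 900 kb had 34 peaks in replicate 1 and 30 in replicate 2, that from 700 to 800 kb only 8 in each, and that from 600 to 700 kb 27 and 25. The stretch from 500 to 600 kb had 28 and 25. The stretch from 400 to 500 kb had 14 and 21, and that from 300 to 400 kb had 2 and 4. Counts did not stay at that low. The stretch from 200 to 300 kb had 3 peaks in replicate 1 and 18 in replicate 2, and that from 100 to 200 kb had 9 and 10. The last 100 kb had 5 and 4. The whole last 500 kb held 33 peaks in replicate 1 and 57 in replicate 2, or 66.0 and 114 per Mb. That was 0.243 and 0.407 times the density of the 1 Mb before it, a mean of 0.325 ± 0.12 (SD, n = 2). In the whole-series list the value was 0.377.

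The last peak of the replicate 1 list ended at the last position used, 20924149. It was 160 bp wide, and its score was 30.43 in the authors' list. The whole-series list also ended with a peak there, 256 bp wide, with a score of 5. Replicate 2 had no peak at that place. Its last peak ended at 20882406, 41743 bp before the end. At the other border of the arm, the first peak inside lay 43.7 kb from the border in replicate 1 and 43.6 kb in replicate 2. The nearest peaks outside lay 40.2 and 20.6 kb away, so no peak stood close to the border.

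**Figure D2:**
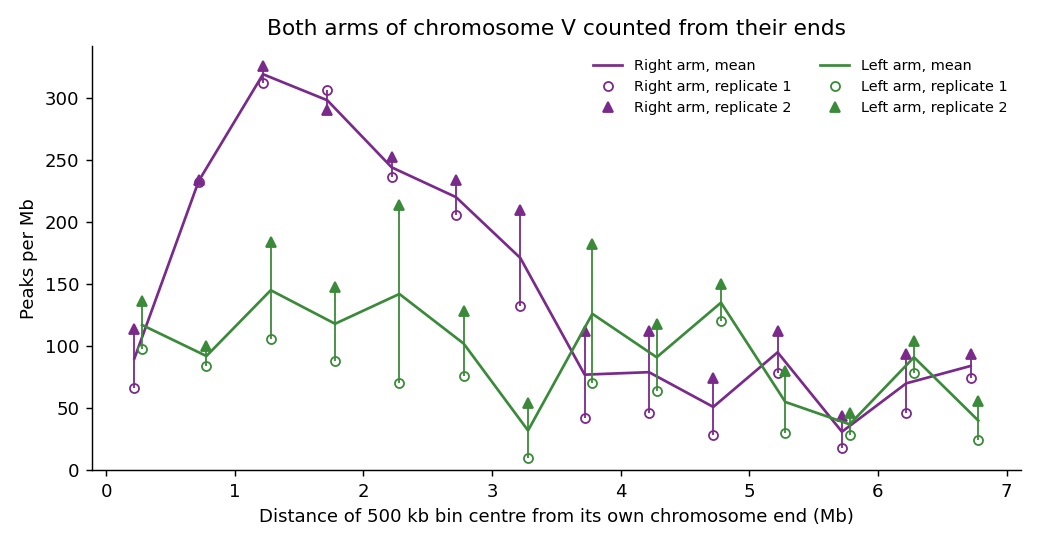
Peaks per Mb in 500 kb bins of the right and left arms of chromosome V, against the distance of the bin centre from the end of that arm in Mb. Circles and triangles are replicates 1 and 2, vertical bars join them, and lines are their means; the right arm stands at 319 per Mb from 1000 to 1500 kb, where the left arm stands at 145.

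Both replicates had more peaks per Mb on the right arm than on the rest of chromosome V. The left arm had 67.5 and 122 peaks per Mb in replicates 1 and 2, and the centre had 30.1 and 54.1. The right arm was 1.93 and 1.35 times as dense as the left arm, a mean of 1.64 ± 0.41 (SD, n = 2). It was 4.34 and 3.05 times as dense as the centre, a mean of 3.69 ± 0.91. With 2 replicates an exact permutation test that flips signs (two-sided) cannot go below p = 0.5, and it gave p = 0.5 for both differences. After Benjamini-Hochberg adjustment over 15 such tests, which took 5 measures against 3 other sections, the value was 0.625. The right arm of chromosome II had a similar density, with 114 peaks per Mb in replicate 1 and 176 in the other list. The difference from it averaged 2.45 ± 19 peaks per Mb, with opposite signs in the replicates (exact p = 1, adjusted p = 1).

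The excess over the left arm was concentrated between 500 and 3500 kb from the chromosome end. From 500 to 1000 kb the right arm had 116 and 117 peaks in replicates 1 and 2, where the left arm had 42 and 50. From 1000 to 1500 kb the counts were 156 and 163 on the right and 53 and 92 on the left. In the last 500 kb the order was the other way round, with 33 and 57 peaks on the right and 49 and 68 on the left. Beyond 3500 kb, neither arm was the denser throughout. From 3500 to 4000 kb the right arm had 21 and 56 peaks and the left arm 35 and 91, and from 5000 to 5500 kb it had 39 and 56 against 15 and 40. These bin-by-bin differences were not tested.

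Most peaks of the arm were narrow, and a minority of wide ones held much of the covered sequence. Median widths were 281 bp in replicate 1, 308 bp in replicate 2 and 338 bp in the whole-series list. The middle 50% of widths ran from 197.5 to 499 bp in replicate 1 and from 208 to 616.5 bp in replicate 2. The narrowest peak was 146 bp in each list. In replicate 1, 67 peaks were 1 kb or wider, 7.35% of the arm's peaks against 7.38% of that whole list. In replicate 2 there were 138, or 12% against 11.3%, and in the whole-series list 177, or 14.1% against 14.2%. The share of wide peaks was thus close to that of the genome in each list. Those peaks held 26.5% of the peak bases in replicate 1, 39.9% in replicate 2 and 46.9% in the whole-series list. Peaks of 2 kb or wider numbered 57 in the whole-series list, 4.54% against 4.68% of the genome-wide list.

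**Figure D3:**
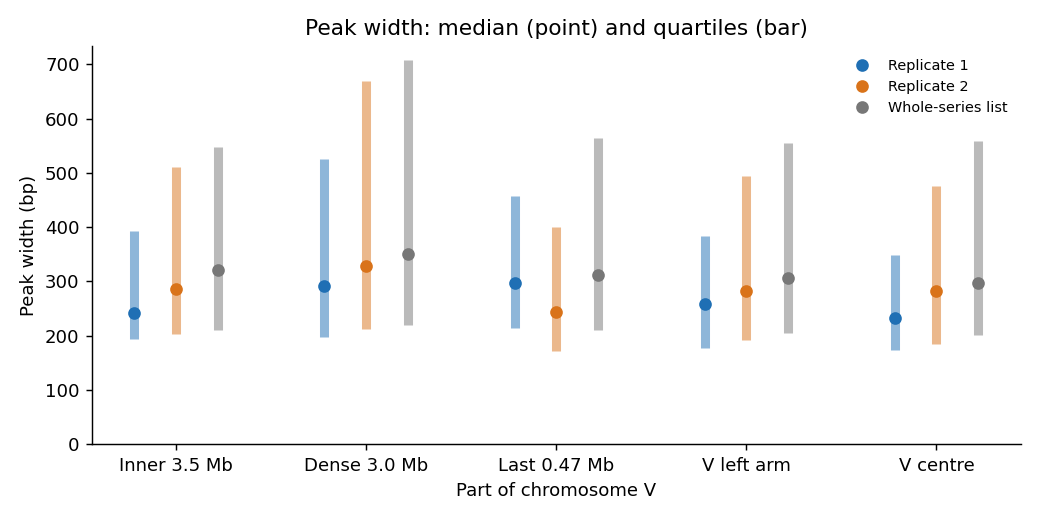
Peak width in bp in the inner, dense and terminal parts of the right arm, and in the left arm and centre of chromosome V. Points are medians and bars run from the lower to the upper quartile for replicate 1, replicate 2 and the whole-series list; in the dense part the medians are 292.5, 328 and 350.5 bp.

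By their medians, peaks in the dense part were somewhat wider and scored higher than those in the inner part. Median width was 292.5 against 241.5 bp in replicate 1 and 328 against 287 bp in replicate 2. The whole-series list had 350.5 against 322 bp. The broadest peaks went the other way in that list, where 4.04% of the peaks in the dense part and 6.43% of those in the inner part were 2 kb or wider. In replicate 2 these shares were 3.21% and 3.75%, and in replicate 1 they were 0.975% (7 peaks) and 0.602% (1 peak). In the terminal part the replicates disagreed, with medians of 298 bp and 243 bp. The peak score was used as a rank within its list. The median peak of the dense part stood at percentile 59.4 of replicate 1 and 60.2 of replicate 2. In the inner part it stood at percentiles 49.4 and 42.1, and in the terminal part at 40.2 and 26.7. Both replicates thus put the dense part first and the terminal part last, the latter on 27 and 51 peaks. Single bins of 500 kb did not all follow that order. The dense bin from 17949433 stood at percentiles 46.1 and 48.7, below the sparse bin from 15449433 at 54.9 and 51.3. For the whole arm the median percentile was 55.6 and 53.8, higher than the 40.2 and 45.1 of the left arm. That difference averaged 12.1 ± 4.7 percentile points (exact permutation p = 0.5, adjusted p = 0.625).

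Neighbouring peaks were close. From one peak to the next on the arm, the median distance was 890 bp in the first replicate and 1040 bp in the second. In the dense part it was 818 and 953 bp, in the inner part 1382 and 1383 bp, and in the terminal part 8656 and 2924 bp. The inner part therefore had clustered peaks too, set between long empty intervals. Many neighbours were almost adjoining, and joining peaks less than 500 bp apart left 577 regions in replicate 1 and 755 in replicate 2. Such clustering was not particular to this arm. Peaks per joined region averaged 1.55 on it, 1.49 on the left arm, 1.52 in the centre and 1.56 on the right arm of II. The share of peaks with a neighbour within 1 kb averaged 71.7%, against 64.0%, 63.0% and 67.0% in the same order. In the whole-series list 128 of the arm's 1255 peaks, 10.2%, each overlapped at least 2 peaks of replicate 1, and 116, 9.24%, at least 2 of replicate 2. These shares were not computed for other sections, so they cannot be called particular to the arm. One peak, at 20408058 to 20417652, overlapped 11 separate peaks of replicate 1 and 2 of replicate 2.

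Runs of at least 5 peaks with less than 5 kb between them were taken as dense stretches. Replicate 1 had 56 of them, which held 77.3% of the arm's peaks on 14.4% of its length. Replicate 2 had 62, with 67.7% of the peaks on 16.7% of the length. No count of such runs in other sections is given here, so these shares cannot be called particular to the arm. Where the stretches of both replicates overlapped, and at least 5 peaks of each replicate lay there, 41 shared stretches remained, 764 kb in all. Of these, 32 were in the dense part and covered 22.3% of it, 9 were in the inner part and covered 2.75%, and none was in the terminal part. The parts were cut from these same peak counts, so this split is a description and no separate result. In the terminal part replicate 1 had 1 stretch, from 20750997 to 20755261, and replicate 2 had 2, from 20505438 and from 20666965, and none of them overlapped.

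The longest shared stretch ran for 60.1 kb from 19874572 to 19934720. It was overlapped by 39 peaks in replicate 1 and 37 in replicate 2, which covered 47.0% and 52.2% of it. The second ran for 53.2 kb from 19592636 to 19645808, with 41 and 32 peaks. It lies in the 100 kb bin with the most peaks. The next ran for 52.2 kb from 18947962 to 19000161, with 35 and 30 peaks. The fourth and the fifth spanned 48.6 kb from 18529818 to 18578445 and 41.5 kb from 19333244 to 19374736, with 22 and 21 and with 29 and 25 peaks. All 5 lay in the dense part, which had been chosen for its high counts. In the whole-series list between 20 and 38 peaks overlapped each of them.

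The 3 longest empty intervals of the arm lay in the inner part. In the combined 3 lists the longest interval with no peak ran for 123.6 kb from 15983095 to 16106671. The next spanned 102.8 kb from 15191950 to 15294729, and the third 93.0 kb from 16110886 to 16203848. Only 4.2 kb of sequence with peaks separated the first from the third. The replicates differed in these intervals. Replicate 1 had no peak for 413 kb from 15909317 to 16321974, where replicate 2 had 25. It had none for 238 kb from 16877394 to 17115587, where replicate 2 had 12. Intervals of at least 20 kb without a peak in any list numbered 54 in the inner part, 17 in the dense part and 7 in the terminal part. Per Mb this was 15.4, 5.67 and 14.7, so the terminal part had nearly as many as the inner part for its length. Because the borders of the parts were set from peak counts, fewer such intervals in the dense part restate that choice.

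Replicate support of the arm's peaks was measured as an overlap of at least 1 bp. Of the 1255 whole-series peaks, 509 overlapped peaks of both replicates, or 40.6% (exact 95% interval 37.8 to 43.3). Over all chromosomes the percentage was 37.2%. A further 443 peaks, 35.3% (32.7 to 38.0), overlapped replicate 2 alone and 142, 11.3% (9.61 to 13.2), replicate 1 alone. Over all chromosomes these shares were 39.1% and 9.46%. The remaining 161 peaks, 12.8% (11.03 to 14.8), overlapped no replicate peak, against 14.3% over all chromosomes. With 50% of each peak required to overlap, both replicates held 22.1% of them, against 18% over all chromosomes. These intervals allow for counting error alone, as if each peak were independent of its neighbours.

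Support differed along the arm. In the dense part 418 of 892 peaks, 46.9% (95% interval 43.5 to 50.2), were found in both replicates. In the inner part it was 78 of 311, 25.1% (20.4 to 30.3), and in the terminal part 13 of 52, 25% (14.03 to 38.9). Replicate 1 had only 166 peaks in the inner part, against 718 in the dense part, which limits how many could be found in both. The borders were set from such counts, so the difference between the parts is a description. Here too the intervals treat neighbouring peaks as independent. The inner and terminal parts were made up largely of peaks found in replicate 2 alone, at 54.0% and 50.0%, against 27.9% in the dense part. That share was 48.8% on the left arm of V, 46.9% in its centre and 44.0% on the right arm of II. Over all chromosomes it was 39.1%. By bins of 500 kb, support from both replicates was highest from 18949433 to 19449432, at 56.1% of 164 peaks. It was lowest from 15949433 to 16449432, at 16.2% of 37 peaks. The left arm and the centre of chromosome V had 28.8% and 27.3%.

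**Figure D4:**
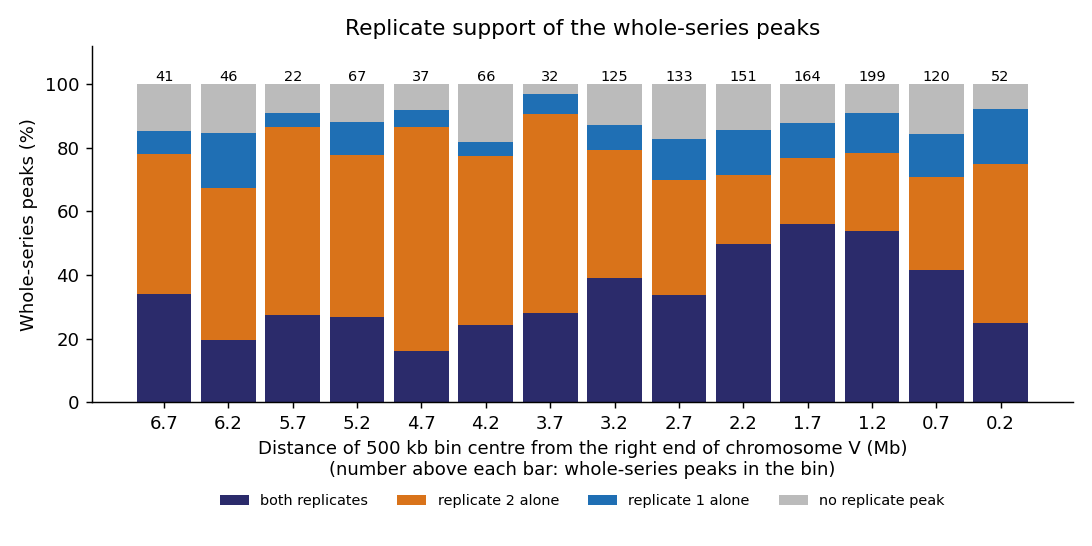
Percent of the whole-series peaks in each 500 kb bin that overlapped peaks of both replicates, of replicate 2 alone, of replicate 1 alone or of neither, by distance of the bin centre from the right end of chromosome V in Mb. Numbers above the bars are whole-series peaks; the share found in both replicates reaches 56.1% in the bin with 164 peaks.

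By parts, the replicates differed less in peak number where peaks were dense, a description only, since these counts also set the borders. Replicate 2 had 1.93 times as many peaks as replicate 1 in the inner part and 1.89 times as many in the terminal part, but 1.08 times as many in the dense part. In 2 of the 6 dense bins replicate 1 had the more peaks, with 148 against 141 and 113 against 106. Not every bin followed its part. The dense bin from 17449433 had a ratio of 1.53, above the 1.27 of the sparse bin from 13949433. With only the higher-scoring 50% of peaks kept, the ratios of the inner, terminal and dense parts were 1.57, 1.33 and 1.13. With peaks less than 500 bp apart merged they were 1.77, 1.68 and 1.17. The part that depth has in this was not tested, since read counts were not at hand.

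Seen from the replicate lists, 665 of the 911 replicate 1 peaks, 73.0% (95% interval 70.0 to 75.9), overlapped a replicate 2 peak. Over all chromosomes it was 74.7%. Of the 1150 replicate 2 peaks, 592, or 51.5% (48.5 to 54.4), overlapped a replicate 1 peak, against 47.1% over all chromosomes. In the dense part these shares were 74.8% and 61.4%, and in the inner part 67.5% and 30.9%. The gap between the parts was 7.32 percentage points for replicate 1 peaks and 30.4 for replicate 2 peaks. Each share depends on how many peaks the other list had in that part, and the borders were set from those counts. By median width, replicate 2 peaks with a partner spanned 467.5 bp and those without one 248 bp, and a wide peak more readily meets a 1 bp overlap. In bases, the lists had 283 kb of the arm in common, 72.2% of the replicate 1 bases and 46.7% of the replicate 2 bases.

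By the 1 bp rule most wide and high-scoring peaks of the arm were found in both libraries, but stricter rules lowered these shares. Of the 177 whole-series peaks of 1 kb or wider, 157, or 88.7% (95% interval 83.1 to 93.0), overlapped peaks of both, against 86.4% of such peaks over all chromosomes. With 50% of each peak required to overlap, 54 of the 177, or 30.5%, were found in both and 24, or 13.6%, in neither. Over all chromosomes these shares were 28.1% and 17.7%. By the midpoint rule 50.8% were found in both, against 55.6% over all chromosomes. Of the 1078 narrower peaks 32.7% (29.9 to 35.5) were found in both by the 1 bp rule and 20.7% by reciprocal overlap. In the highest-scoring 25% of the arm's peaks 293 of 316, 92.7% (89.3 to 95.3), were found in both replicates by the 1 bp rule, 53.8% by reciprocal overlap and 70.3% by the midpoint rule. By the 1 bp rule, in the lowest-scoring 25%, 4 of 314, 1.27% (0.348 to 3.23), were, and 38.2% (32.8 to 43.8) overlapped neither list. Score and width rest on the same reads as the overlap, so these shares describe the lists and are not independent evidence of binding.

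Ranked by score in the whole-series list, 11 of the first 100 peaks and 117 of the first 1000 were on the arm, which held 8.56% of that list. Of its own 10 highest that both replicates supported, 9 were in the dense part and 1 in the inner part. Of all 509 peaks of the arm found in both replicates, 418 were in the dense part, so most were expected there. The highest was the peak at 19119190 to 19127211, 8022 bp wide, which the authors' list scored at 180.5, rank 13 of the genome. It overlapped 5 peaks of replicate 1, the best scoring 37.0, and 2 of replicate 2, the best scoring 193.1. Scores of different lists are not on a common scale. The peaks at 19199153 to 19201045 and at 20422354 to 20424875 both scored 168.6 and were 1893 and 2522 bp wide. The second of these lay about 0.501 Mb from the chromosome end, at the edge of the fall. The peak at 19913628 to 19919565, 5938 bp wide, scored 167.5 and lay in the longest shared stretch. So did the peak at 19932708 to 19934808, with a score of 156.6, which ended just past the stretch.

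The other 5 of these peaks were narrower than 3 kb. Those at 20100743 to 20103372 and 20085713 to 20087723 scored 155.8 and 150.5, and those at 18968103 to 18969033 and 19945297 to 19946125 scored 148.4 and 142.1. The first pair was 2630 and 2011 bp wide and the second pair 931 and 829 bp. The only one in the inner part, at 14124027 to 14125788, scored 146.2 and had 3 other peaks of the list within 10 kb, against 4 to 17 for the rest. Where 50% of each peak had to be covered, 8 of these 10 were still found in both lists.

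The widest peaks were not all among the highest. The widest, at 20408058 to 20417652, spanned 9595 bp and scored 79.7. The second was the highest-scoring peak described above. The third and the fourth lay in the inner part, at 14838753 to 14845805 and at 17119989 to 17126574, with 7053 and 6586 bp and scores of 33.7 and 12.2. The first of them was 1 peak in replicate 1 and 6 in replicate 2, and the second was 3 and 6. The fifth, at 20094386 to 20100343, spanned 5958 bp and scored 117.8. All 5 overlapped peaks of both replicates by at least 1 bp, but under reciprocal overlap only the peak at 14838753 was found in both.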

How the data were processed

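LIN-61 peaks of 2 ChIP libraries of wild-type L3 larvae were analysed. The authors aligned reads with BWA to ce10, per the submitters' processing notes, and called peaks with MACS on WormBase WS220, per the file headers. The calling threshold, the use of input as control and the making of the whole-series list were not given in the sources used here. Each peak has 1 score from the authors, whose meaning is not stated, and it served to rank peaks inside 1 list. Which peaks are listed depends on that threshold and on depth. Depth per sample was not given. With 2 libraries, precision rests on their spread.

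From the deposited positions, peaks per section, per bin, widths, gaps, runs and overlaps were computed with Python 3.11.15, numpy 2.4.6, pandas 2.3.3 and scipy 1.17.1. The chromosome end was taken as the last peak end in any list. A peak belonged to the section of its midpoint. Intervals are exact (Clopper-Pearson, 95%). Sections were compared by exact sign-flip permutation over the replicates. Functions were tested on simulated peak lists.

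The right arm, the bins, the lists compared and the rules were chosen with earlier results of these data known. Named regions are the 10 highest-scoring peaks found in both replicates, the 5 widest, the 5 longest shared stretches, the 3 longest gaps, and the 3 densest and 3 sparsest bins. The 100 kb bins and each replicate's own gaps were picked after seeing values. Alternatives are given in the closing section. No genes or sequences were assigned, for want of a WS220 reference here.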

Additional observations from a re-analysis of the deposited data

How the results depend on the processing

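Of the alternatives run, none reversed a direction. The right arm stayed denser than the left arm under all 7 alternatives (1.35 to 2.17 times) and than the centre under all 7 (3.05 to 5.72 times), but with 2 replicates the test could not pass a threshold under any of them. Density on the arm (148 peaks per Mb) was 80.6 in the higher-scoring 50%, 95.5 after merging and 180 in the whole-series list, and ran from 131 to 165 with a replicate left out; in covered bases it was 7.16%. Median width (294.5 bp) was 475 bp in the higher-scoring 50%, 450 bp after merging and 338 bp in the whole-series list. The terminal ratio (0.325) was 0.199 in the higher-scoring 50% and 0.524 when the last 1 Mb was set against the 1 Mb before it. The share found in both replicates (40.6%) was 22.1% with reciprocal overlap, 28.6% by the midpoint rule, and 46.4% when only the higher-scoring 50% was used. Shared dense stretches (764 kb) came to 227 kb with gaps under 2 kb, 1327 kb with gaps under 10 kb and 380 kb in the higher-scoring 50%, since these settings change which peaks can join. The densest bin (343 per Mb) had 412 per Mb at 250 kb and 316 at 1 Mb. At 250 kb the densities of bins in the inner and the dense part overlapped. The ratio of the dense to the inner part, added after seeing the data, was 3.94 ± 1.6, and 5.08 in the higher-scoring 50%, 3.75 after merging and 3.35 in the whole-series list. It ran from 2.84 to 5.05 with a replicate left out. Where not stated, the cause was not tested. No paired analysis was possible because input peak lists were not used here, so numbers shared by ChIP and input pair nothing. With read depth unknown, a gap in peak number between replicates cannot be split into depth and binding.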
